A study of Homo sapiens with 6 samples.

Results

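The S100 proteins are small calcium-binding proteins, and 10 of their genes were followed here through MDA-MB-231 cells in which HMGA2 had been knocked down. The members were S100A2, S100A3, S100A4, S100A6, S100A10, S100A11, S100A13, S100A14, S100A16 and S100P, taken by gene symbol from an expression table of 61806 genes. Of the 10 members, 8 had enough counts to be tested and S100A14 and S100P did not. The 8 tested members also passed the count filter within each line on its own.

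MDA-MB-231 is a human triple-negative breast cancer line with a mesenchymal appearance. RNA was sequenced from a control line with a non-targeting hairpin (shNC) and from lines carrying either of 2 hairpins against HMGA2 (shHMGA2-1 and shHMGA2-2), each in 2 libraries. HMGA2 is an architectural chromatin protein that binds AT-rich DNA. The hairpins were delivered by lentivirus under puromycin selection, and the knockdown lines were grown from single cells by limiting dilution, so that each knockdown line is 1 clone and the hairpin cannot be told apart from the clone. Nothing in the labels says whether the 2 libraries of a line came from separate cultures. The p-values of comparisons between lines set a difference against the spread between libraries of a line, and not against that between clones. The library names of the controls read WT where their titles read shNC, and those of shHMGA2-1 carry SH2. The titles were followed.

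S100 proteins carry a pair of EF-hand calcium-binding loops and act mostly as dimers. Calcium opens a hydrophobic face through which they bind target proteins such as annexins, myosin heavy chains and cytoskeletal regulators. Some members are also released from cells and bind surface receptors, among them RAGE (the product of AGER) and TLR4. Most human S100 genes sit together on the long arm of chromosome 1, in a stretch they share with genes of skin barrier formation. S100A4 in particular is known for its tie to motility and metastasis in breast cancer.

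Libraries held 16461178 to 17167293 counts, and the 3 counts that a zero still allows came to 0.172 to 0.185 CPM (counts corrected for library size with TMM factors). HMGA2 was counted 2126 and 2161 times in the shNC libraries, 858 and 989 times in those of shHMGA2-1 and 435 and 482 times in those of shHMGA2-2. It was 2.45-fold lower in shHMGA2-1 and 4.94-fold lower in shHMGA2-2 than in shNC. The 6 markers of the line (VIM, CD44, AXL, MSN, CAV1, LOX) were present in every library, PGR had at most 2 counts, ESR1 at most 12, and ERBB2 1126 to 1909. Leukocyte markers summed to at most 1.18 CPM. In bulk RNA, fewer cells that express a gene and less RNA per cell cannot be told apart.

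The tested members are sorted here into 2 sets by the direction of their difference between the knockdown lines. This sorting is a way of description and no result in itself. Over all genes 24.5% were called higher and 25.7% lower in shHMGA2-2 than in shHMGA2-1. S100A6, S100A4, S100A3 and S100A2, which follow each other among the tested genes of chromosome 1, were lower in shHMGA2-1 than in shNC, and were higher in shHMGA2-2 than in shHMGA2-1. S100A10, S100A11, S100A13 and S100A16 were lower in shHMGA2-2 than in both other lines, S100A13 only by a small difference that several other ways of analysis did not call. S100A10 and S100A16 were lower in shHMGA2-1 than in shNC as well, so each set is mixed in its differences from shNC.

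The promoter sequences of the first set are shown because these neighbours were all higher in shHMGA2-2 than in shHMGA2-1. Each was also lower in shHMGA2-1 than in shNC, as S100A10 and S100A16 were, and only S100A2 and S100A4 were called in shHMGA2-2 against shNC. These sequences were taken from RefSeq (GRCh38.p14), which listed a start for 10 of 10 members. Each line gives the 250 bases before the start on the minus strand of chromosome 1, 5′ to 3′. Capitals mark exact matches, on either strand, to the TATA box motif TATAAA, the AP-1 site motif TGACTCA (which reads TGAGTCA where it lies on the other strand), the box motif CCAAT (then ATTGG), the GC box motif GGGCGG (then CCGCCC) and the AT run AATATT. The positions are chr1:153535992-153536241 for S100A6, chr1:153545807-153546056 for S100A4, chr1:153549259-153549508 for S100A3 and chr1:153565845-153566094 for the more distal of 2 listed starts of S100A2.
S100A6: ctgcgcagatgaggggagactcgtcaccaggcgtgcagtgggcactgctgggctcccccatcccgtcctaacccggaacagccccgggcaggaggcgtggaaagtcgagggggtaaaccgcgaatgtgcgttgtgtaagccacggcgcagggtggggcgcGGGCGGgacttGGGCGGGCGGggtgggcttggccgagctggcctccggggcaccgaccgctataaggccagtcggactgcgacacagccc
S100A4: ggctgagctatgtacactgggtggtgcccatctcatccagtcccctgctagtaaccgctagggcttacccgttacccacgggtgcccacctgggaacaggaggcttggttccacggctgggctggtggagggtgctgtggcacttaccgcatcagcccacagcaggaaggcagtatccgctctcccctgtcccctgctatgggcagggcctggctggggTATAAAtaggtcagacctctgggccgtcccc
S100A3: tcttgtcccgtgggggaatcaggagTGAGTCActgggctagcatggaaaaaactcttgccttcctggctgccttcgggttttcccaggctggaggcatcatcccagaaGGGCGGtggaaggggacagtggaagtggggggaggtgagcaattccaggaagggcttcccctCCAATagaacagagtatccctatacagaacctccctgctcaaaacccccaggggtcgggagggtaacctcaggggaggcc
S100A2: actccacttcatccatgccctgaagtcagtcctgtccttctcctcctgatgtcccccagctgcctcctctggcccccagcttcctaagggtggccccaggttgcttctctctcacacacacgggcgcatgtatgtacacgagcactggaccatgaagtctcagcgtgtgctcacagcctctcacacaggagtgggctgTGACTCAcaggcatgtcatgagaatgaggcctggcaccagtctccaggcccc

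No searched motif was held by all 4 of these promoters. The TATA box of S100A4 began 31 bases before the start, and 11.5% of 35116 human promoters of the same length (250 bases before and 50 after the start) held this motif. An AP-1 site began 52 bases before the shown start of S100A2 and 225 bases before that of S100A3, against 4.95% of all promoters. The other listed start of S100A2, which is not shown, held no match to any searched motif. GC boxes, found in 45% of promoters, lay in those of S100A6 and S100A3, and the 3 of S100A6 began 90, 79 and 75 bases before the start, the last 2 overlapping. CCAAT boxes were found in 34.6% of all promoters, and of these 4 only in that of S100A3. AATATT was found in 6.96% of promoters and, among the members, only in that of S100A10. The promoter of S100A6 held 69.3% G and C, and those of S100A4, S100A3 and this start of S100A2 60.7%, 56.3% and 61%, against a median of 58.7% over all promoters. These matches describe letters in a window and not binding.

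The levels of the members spanned a wide range, and 3 of them held most of the S100 RNA. Levels are compared between genes as FPKM, which corrects for exonic length. S100A6, S100A10 and S100A11 together took 91.7% to 94% of the members' summed FPKM in each library. S100A6, a binder of the ubiquitin-ligase adaptor CACYBP, ranked 40 among all genes in shNC, 109 in shHMGA2-1 and 45 in shHMGA2-2. S100A11, which binds annexins, ranked 59, 58 and 97, and S100A10, the annexin A2 partner also called p11, ranked 63, 104 and 146.

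In shNC the order of mean FPKM was S100A6 (350), S100A11 (276), S100A10 (257), S100A16 (59.7), S100A13 (8.6), S100A4 (4.48), S100A3 (4.03) and S100A2 (2.26). In shNC the libraries of S100A4 and S100A3 overlapped, and those of the other neighbours in the order did not. In shHMGA2-1 S100A11 stood first (285), before S100A10 (196) and S100A6 (185), and S100A4 (0.77) was the lowest tested member. In shHMGA2-2 S100A6 stood first again (371), and S100A4 (10.8) had passed S100A13 (7.56). In both knockdown lines no neighbouring pair among the 8 overlapped. In shHMGA2-1 the order of S100A3 and S100A4 rests on 12 to 14 counts a library and on exonic sizes of 841 and 946 bases. There the higher S100A6 library (194.97) also lay just under the lower one of S100A10 (195.85). The ratio of S100A6 to S100A11 in FPKM was 1.34 and 1.2 in the controls, then 0.654 and 0.641 under shHMGA2-1 and 1.81 and 1.91 under shHMGA2-2. The groups of this ratio did not overlap.

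The summed level of the 10 members was 965 and 939 CPM in the controls, then 659 and 622 under shHMGA2-1 and 669 and 727 under shHMGA2-2. The sum was thus lower in all 4 knockdown libraries than in the controls, although its parts differed between the knockdown lines. CPM here is normalized by the TMM factors of edgeR.

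To ask how the members responded to each hairpin, each knockdown line was compared with shNC in a model of all 6 libraries. Differences are log2 fold changes with their standard error (SE), a gene was called where the quasi-likelihood test of edgeR gave an adjusted p under 0.05, and a differentially expressed gene (DEG) also changed at least 2-fold. In shHMGA2-1, 6 of the 8 tested members were lower than in shNC and 0 were higher. Over all 16110 tested genes 17.6% were called lower and 15.8% higher. Of the 8, 3 were DEGs (S100A2, S100A3 and S100A4), against 8.49% of all genes. The median change of the 8 was -0.97, and that of all genes 0.01. Without the first shHMGA2-1 library, 5 members were DEGs, S100A6 and S100A16 being added at changes next to the 2-fold limit.

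In shHMGA2-2, 4 of the 8 were lower (S100A10, S100A11, S100A13, S100A16) and 2 were higher (S100A2, S100A4), against 29.2% lower and 29.5% higher over all genes. S100A16, S100A2 and S100A4 were DEGs, against 21.3% of all genes. The median of the 8 was -0.17, and that of all genes 0.03. As a ratio of line means in FPKM, which is scaled by library totals, the median of the 8 was -0.05. The median of all genes also lay higher on that scale, at 0.138 in a fit on log2(FPKM + 0.1). These shares are read beside a background in which 9464 of 16110 genes were called in shHMGA2-2. Both comparisons share the control libraries.

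The difference between the knockdown lines was tested directly. All 8 members differed, 4 higher in shHMGA2-2 (S100A2, S100A3, S100A4, S100A6) and 4 lower (S100A10, S100A11, S100A13, S100A16). Over all genes 24.5% were higher and 25.7% lower. The 3 DEGs were S100A2, S100A3 and S100A4, all higher in shHMGA2-2, against 15.1% of all genes. HMGA2 itself was 2.02-fold lower in shHMGA2-2 than in shHMGA2-1.

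**Figure D1:**
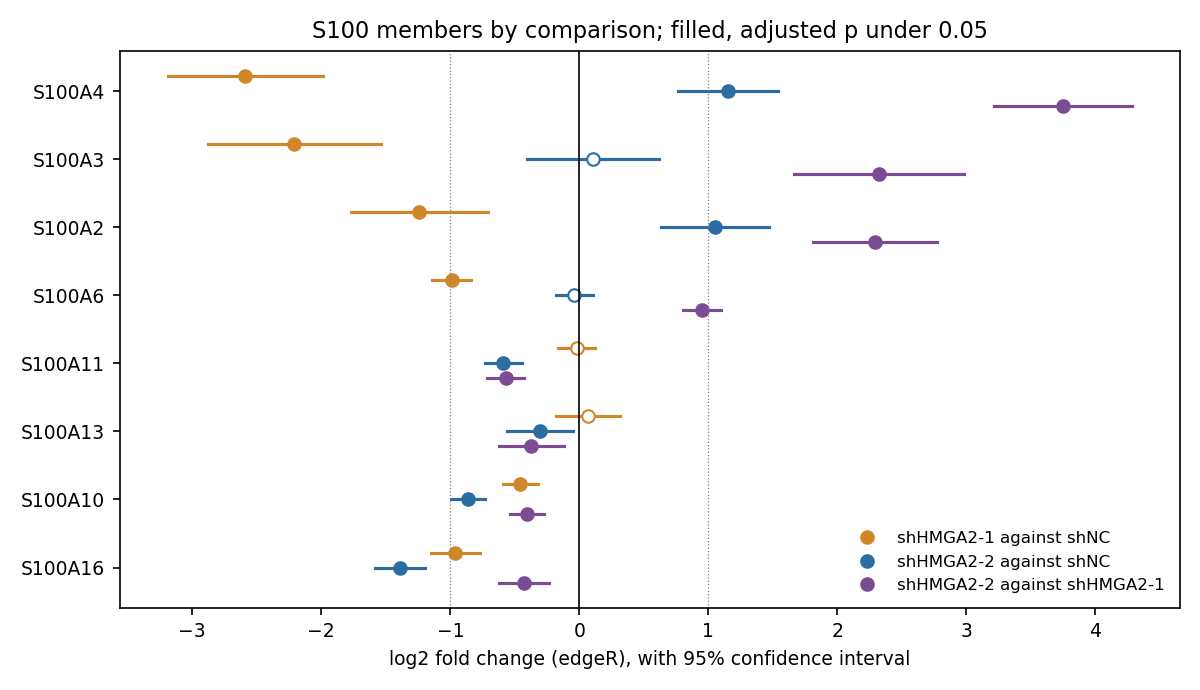
Log2 fold changes of the 8 tested members from edgeR with 95% confidence intervals, for each knockdown line against shNC and for shHMGA2-2 against shHMGA2-1 (n = 2 libraries a line). Filled points had an adjusted p under 0.05 and dotted lines mark 2-fold. S100A4, S100A3 and S100A2 spread to both sides, from -2.59 to 3.75, while S100A10 and S100A16 lie under 0 in all 3 comparisons.

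S100A4, which binds nonmuscle myosin and is linked to cell motility, moved most in shHMGA2-1 and between the knockdown lines. It was counted 65 and 79 times in the shNC libraries, 12 and 13 times in those of shHMGA2-1 and 157 and 182 times in those of shHMGA2-2. The 3 lines did not overlap, and shHMGA2-1 was the lowest. S100A4 was 6.03-fold lower in shHMGA2-1 (log2 fold change -2.59, SE 0.291, adjusted p = 1.52e-07) and 2.22-fold higher in shHMGA2-2 (1.15, SE 0.19, adjusted p = 1.3e-05) than in shNC. Between the knockdown lines the difference was 13.4-fold (adjusted p = 1.18e-11). S100A4 lies at chr1:153543613-153550136 on the minus strand.

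S100A3, a cysteine-rich member known from the hair cuticle, starts within the span of S100A4 on the same strand (chr1:153547329-153549258), with 0 shared exonic bases in GENCODE 29. It was counted 62 and 53 times in the shNC libraries, 12 and 14 times in those of shHMGA2-1 and 61 and 70 times in those of shHMGA2-2. The shHMGA2-1 libraries lay under all others, and those of shHMGA2-2 overlapped shNC. S100A3 was 4.63-fold lower in shHMGA2-1 than in shNC (-2.21, SE 0.324, adjusted p = 7.72e-06) and 4.99-fold higher in shHMGA2-2 than in shHMGA2-1 (adjusted p = 1.42e-06). In shHMGA2-2 against shNC it was not called (0.11, 95% confidence interval -0.41 to 0.62, adjusted p = 0.735). The ratio of S100A4 to S100A3 in FPKM was 0.933 and 1.33 in the controls, then 0.892 and 0.825 under shHMGA2-1 and 2.29 and 2.31 under shHMGA2-2.

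S100A2, a mostly nuclear member that binds p53 and is known from basal epithelium, was counted 57 and 62 times in the shNC libraries, 26 and 27 times in those of shHMGA2-1 and 132 and 129 times in those of shHMGA2-2. The lines did not overlap, in the same order as for S100A4. S100A2 was 2.36-fold lower in shHMGA2-1 (-1.24, SE 0.258, adjusted p = 0.000548) and 2.07-fold higher in shHMGA2-2 (1.05, SE 0.203, adjusted p = 9.47e-05). Its difference between the knockdown lines was 4.9-fold (adjusted p = 1.14e-08). S100A2 lies at chr1:153561108-153567890.

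S100A6 was the most abundant of these neighbours, with 6009 and 5537 counts in both controls, 3250 and 2899 in those of shHMGA2-1 and 5533 and 6369 in those of shHMGA2-2. Only shHMGA2-1 stood apart. S100A6 was 1.98-fold lower there than in shNC (-0.99, SE 0.0713, adjusted p = 7.88e-11) and 1.93-fold higher in shHMGA2-2 than in shHMGA2-1 (adjusted p = 5.36e-11). Against shNC, shHMGA2-2 was not called (-0.04, 95% confidence interval -0.18 to 0.11, adjusted p = 0.668), and upper quartile scaling turned the sign of this difference. S100A6 lies at chr1:153534599-153536244.

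Among the members of the second set, S100A16 fell most. S100A16 is a widely expressed member that binds calcium weakly. It was counted 1725 and 1722 times in the shNC libraries, 1005 and 867 times in those of shHMGA2-1 and 626 and 767 times in those of shHMGA2-2. The lines did not overlap, and shNC was the highest. S100A16 was 1.95-fold lower in shHMGA2-1 (-0.96, SE 0.0904, adjusted p = 7.78e-09) and 2.62-fold lower in shHMGA2-2 (-1.39, SE 0.0926, adjusted p = 3.58e-12), and 1.35-fold lower in shHMGA2-2 than in shHMGA2-1 (adjusted p = 0.00054). This order of the lines was also that of HMGA2, while S100A2, S100A3, S100A4 and S100A6 were lowest in shHMGA2-1. How many of all genes share the order of HMGA2 was not counted, and a tie to its level was not tested.

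S100A10, which does not respond to calcium and forms a tetramer with annexin A2 at the plasma membrane, was counted 4430 and 4411 times in the shNC libraries, 3407 and 3394 times in those of shHMGA2-1 and 2492 and 2648 times in those of shHMGA2-2. The lines were again apart in this order. S100A10 was 1.37-fold lower in shHMGA2-1 (-0.46, SE 0.0643, adjusted p = 4.58e-06) and 1.82-fold lower in shHMGA2-2 (-0.86, SE 0.0651, adjusted p = 3.63e-11).

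S100A11 was counted 3001 and 3086 times in the shNC libraries, 3322 and 3023 times in those of shHMGA2-1 and 2046 and 2231 times in those of shHMGA2-2. The shHMGA2-2 libraries lay under the other 4. S100A11 was 1.51-fold lower in shHMGA2-2 (-0.59, SE 0.07, adjusted p = 1.02e-07). In shHMGA2-1 it was not called (-0.02, 95% confidence interval -0.16 to 0.12, adjusted p = 0.871), with a sign that upper quartile scaling turned.

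S100A13, which takes part in the release of FGF1 from cells, was counted 342 and 305 times in the shNC libraries, 389 and 327 times in those of shHMGA2-1 and 271 and 283 times in those of shHMGA2-2. In shHMGA2-1 it was not called (0.07, 95% confidence interval -0.18 to 0.31, adjusted p = 0.718). In shHMGA2-2 it was 1.23-fold lower than in shNC (-0.30, SE 0.123, adjusted p = 0.037), and 8 of 13 alternatives lost this call, with adjusted p up to 0.249. Of its exonic bases in GENCODE 29, 33.5% are shared with other genes, S100A1 on the opposite strand among them, and the strand setting of the counting is not given in the sources used here.

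S100A14 and S100P were at or near the limit of detection. S100A14, an epithelial member, was counted 1 and 0 times in the shNC libraries, 5 and 0 times in those of shHMGA2-1 and 1 and 2 times in those of shHMGA2-2. S100P, first described in placenta, had 0 and 0, 2 and 0, and 0 and 1. At this depth no difference of these genes was detectable. The epithelial marker CDH1 had at most 4 counts in any library. The 8 epithelial markers summed here reached 229 to 232 CPM in shNC, 194 to 215 in shHMGA2-1 and 297 to 316 in shHMGA2-2, where KRT8 was 2.38-fold higher and KRT19 and CLDN4 were 5.49-fold and 5.95-fold lower than in shNC. In shHMGA2-1 EPCAM was 2-fold higher (adjusted p = 6.49e-06) and CLDN4 7.09-fold lower. Single epithelial markers thus moved in both directions, and their part in the S100 results was not tested. Among keratinocyte markers KRT5, IVL and SPRR1B were at 0 in all libraries, and the summed level of 7, mostly KRT10, was 38.3 to 39.4, 34.3 to 37.3 and 31.5 to 33.7 CPM. TP63, a transcription factor of basal epithelium, had 8 and 11, 1 and 4, and 16 and 13 counts. It was 3.86-fold lower in shHMGA2-1 than in shNC (adjusted p = 0.0493) and 5.56-fold higher in shHMGA2-2 than in shHMGA2-1 (adjusted p = 0.005), as S100A2, S100A3 and S100A4 were, and its part in their result was not tested. The 6 fibroblast markers summed to 4.55 to 6.96, 11.4 to 14.2 and 8.49 to 8.51 CPM, with DCN and LUM at 0.

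When the 4 knockdown libraries were taken as a single group, 1 of 8 members was called. S100A16 was 2.23-fold lower than in shNC (-1.16, SE 0.175, adjusted p = 0.0212) and was the only DEG. Over all genes 2.92% were called lower and 2.34% higher, and 3.09% were DEGs. The call was lost without either shNC library (adjusted p = 0.209 and 0.204), without the second shHMGA2-2 library (0.0572) and with the replicate number as a block (0.0764). S100A10 was 1.56-fold lower with an adjusted p of 0.0655. S100A4, which moved in opposite directions in the knockdown lines, had a pooled difference of 0.26 with a confidence interval from -2.48 to 2.99. When the differences of both hairpins were averaged within the model of 3 lines, 6 of 8 members were called. The share of all genes called by this mean is not given here, and the pooled shares above are no background for that count. S100A4 had a mean difference of -0.72 in this setting. The sign of the pooled difference of S100A2 and S100A4 thus depended on the model.

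Of the 11 other S100 genes in the table, 7 were at 0 in all libraries, among them S100A8, S100A7 and S100B. Only S100A1 and S100Z were tested. S100Z was counted 21 and 11 times in the shNC libraries, 12 and 17 times in those of shHMGA2-1 and 0 and 0 times in those of shHMGA2-2. It was at least 5.64-fold lower in shHMGA2-2 than in shNC (adjusted p = 4.05e-05) and at least 4.85-fold lower than in shHMGA2-1 (adjusted p = 0.000106), computed against 3 counts per library. S100A1 had 12 and 9, 8 and 15, and 20 and 27 counts and was not called. S100A5, which lies between S100A6 and S100A4, had at most 6 counts, and S100A9 a single count in 1 library. All 10 S100 pseudogenes in the table were at 0.

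The 9 members on chromosome 1 lie over 1.64 Mb, between starts at 151982915 and 153618787 (GRCh38). This stretch held 90 genes of the table, of which 14 were tested. By its bounds it includes all 8 tested members, so its counts in large part repeat theirs. In shHMGA2-1, 6 of the 14 were lower and 2 higher, and all 6 were members. Over all genes these shares were 17.6% and 15.8%. In shHMGA2-2, 8 were lower and 3 higher, against 29.2% and 29.5% over all genes. Among the 6 tested genes of the stretch outside the S100 family, 0 were lower and 2 higher in shHMGA2-1. In shHMGA2-2, 4 of these 6 were lower and 1 was higher.

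**Figure D2:**
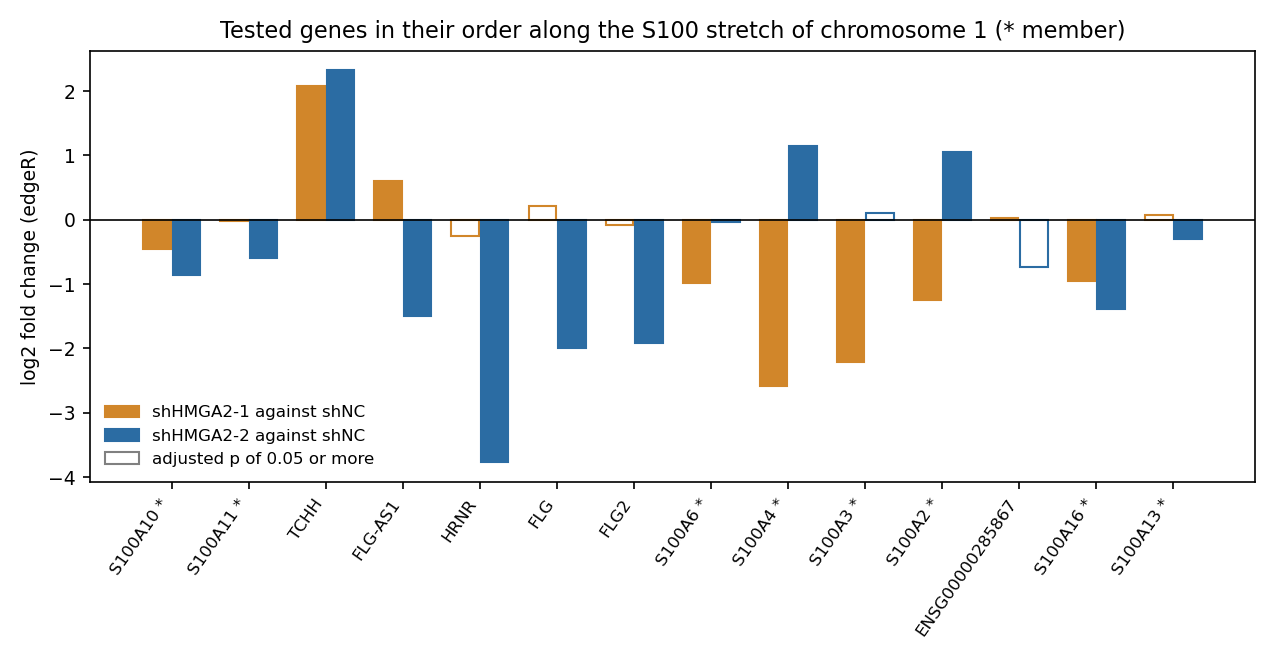
Log2 fold changes (edgeR) of the 14 tested genes of the stretch in their order along chromosome 1, for each knockdown line against shNC. Asterisks mark members and open bars an adjusted p of 0.05 or more. In shHMGA2-1 the bars of S100A6, S100A4, S100A3 and S100A2 point down together, and in shHMGA2-2 those of FLG-AS1, HRNR, FLG and FLG2 do.

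The 4 members from S100A6 to S100A2 are consecutive among the tested genes. Between them and S100A11 lie genes of the skin barrier family that carries S100-like calcium-binding domains fused to long repeats. In shHMGA2-2, HRNR (-3.77), FLG (-1.99) and FLG2 (-1.91, from at most 3 counts a library in shHMGA2-2) were lower than in shNC. So was the antisense transcript FLG-AS1 (2.83-fold), while TCHH was higher (2.32). The level of TCHH in shNC, a mean of 0.215 CPM, was near the limit of detection. In shHMGA2-1 TCHH (2.08) and FLG-AS1 (0.61) were higher, and HRNR, FLG and FLG2 were not called. FLG-AS1 is named as antisense to FLG, and without the strand setting their reads may not be separable.

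The receptors that S100 proteins bind outside cells were taken from a list of 5, of which 4 were tested. In shHMGA2-1, 3 were lower and 0 higher (17.6% and 15.8% over all genes), and in shHMGA2-2, 1 was lower and 0 higher (29.2% and 29.5% over all genes). TLR4, a receptor of innate immunity, was counted 711 and 672 times in the shNC libraries, 74 and 87 times in those of shHMGA2-1 and 27 and 31 times in those of shHMGA2-2. The lines did not overlap, and TLR4 was 9.06-fold lower in shHMGA2-1 and 25.1-fold lower in shHMGA2-2 (adjusted p = 8.83e-15 and 1.79e-17). ALCAM and BSG were lower in shHMGA2-1 (-0.61 and -0.31) and were not called in shHMGA2-2, while AGER was not called in either line (0.62 and 0.52).

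Of 13 annexins, membrane-binding proteins that S100 dimers bridge, 9 were tested. In shHMGA2-1, 3 were lower and 0 higher, against 17.6% and 15.8% over all genes, with a median of -0.12. In shHMGA2-2, 5 were lower and 2 higher, against 29.2% and 29.5%, with a median of -0.16. The largest changes were those of ANXA6 (-0.61 and -0.68), ANXA5 (-0.41 and -0.59) and ANXA11 (0.01, not called, and -0.45). No annexin was a DEG in either line.

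ANXA2, the partner of S100A10, differed by -0.14 in shHMGA2-1 (adjusted p = 0.0522) and by 0.16 in shHMGA2-2 (adjusted p = 0.0154). The ratio of ANXA2 to S100A10 in FPKM was 0.396 and 0.404 in the controls, then 0.513 and 0.484 under shHMGA2-1 and 0.836 and 0.789 under shHMGA2-2. The lines did not overlap in this ratio. Its size depends on the exonic lengths used, 11574 bases for ANXA2 and 1012 for S100A10, so only its differences between lines are read. Without correction for length, ANXA2 lay above S100A10 in shNC (means of 1245 and 272 CPM). ANXA2 has a near-identical copy, ANXA2P2, with 1122 to 1449 counts a library, between which reads may have been split. ANXA1, a partner of S100A11, differed by -0.06 (not called) and -0.15 (adjusted p = 0.0352).

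Of 31 intracellular partners 26 were tested. In shHMGA2-1, 10 were lower and 4 higher, against 17.6% and 15.8% over all genes, and in shHMGA2-2, 11 were lower and 10 higher, against 29.2% and 29.5%. The nonmuscle myosin heavy chains, targets of S100A4, differed among themselves. MYH10 was counted 16 and 22 times in the shNC libraries, 72 and 100 times in those of shHMGA2-1 and 3485 and 3415 times in those of shHMGA2-2. This was 4.27-fold higher in shHMGA2-1 and 171-fold higher in shHMGA2-2 (adjusted p = 2.44e-07 and 5.18e-22). MYH14 was at 0 in shNC and was counted 191 and 187 times in the shHMGA2-2 libraries, a level at least 59.6-fold higher. MYH9 was lower in both lines (-0.39 and -0.29).

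SYT1, a synaptic vesicle protein bound by S100A13 with FGF1, was lower in shHMGA2-1 (-0.92) and higher in shHMGA2-2 (2.29). FGF1 was counted 401 and 388 times in the shNC libraries, 282 and 299 times in those of shHMGA2-1 and 74 and 56 times in those of shHMGA2-2. FGF1 was lower in both lines, by 1.43-fold and 6.4-fold. CACYBP, the partner of S100A6, was 1.14-fold lower in shHMGA2-1 and 2.21-fold lower in shHMGA2-2. In shHMGA2-2 CACYBP was thus lower while S100A6 was not called. EZR, a membrane-cytoskeleton linker, was higher in shHMGA2-2 (0.88) and not called in shHMGA2-1. AHNAK, which S100A10 and annexin A2 bind, was lower in both lines (-0.21 and -0.41). IQGAP1, a scaffold protein, and S100PBP, which binds S100P, were lower in shHMGA2-1 (-0.43 and -0.61) and not called in shHMGA2-2.

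Other EF-hand calcium binders were followed as genes of the same domain. Of 40, 32 were tested, with 14 lower and 7 higher in shHMGA2-1 (17.6% and 15.8% over all genes) and 9 lower and 15 higher in shHMGA2-2 (29.2% and 29.5%). CALB2 (calretinin, a calcium buffer) was counted 23 and 19 times in the shNC libraries, 2 and 0 times in those of shHMGA2-1 and 460 and 471 times in those of shHMGA2-2, in the order of lines seen for S100A4. It was lower in shHMGA2-1 (adjusted p = 9.35e-06) and 20.9-fold higher in shHMGA2-2 than in shNC. RCN3, a calcium-binding protein of the secretory pathway, was at 0 in shNC and was counted 42 and 31 times in the shHMGA2-2 libraries, a level at least 11.5-fold higher. LCP1 (L-plastin, an actin bundler) was lower in both lines (-2.41 and -4.14).

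The genes whose levels over the 6 libraries were most like those of a member were ranked by Euclidean distance on centred log2 CPM among all tested genes, for the 4 members whose line means spanned over 1. For S100A4 they were CXCL8 (distance 0.685), SAA1 (0.720) and CD82 (0.743). For S100A2 they were MYLK (0.381), PDE10A (0.453) and TNFAIP3 (0.474), and for S100A3 NHS (0.406), FHIP1A (0.433) and SLC37A2 (0.504). For S100A16 they were RIN3 (0.116), PCYT2 (0.168) and SLC6A6 (0.175). These distances grow with the span of a member and with counting noise and are not compared between members. Among the members themselves, S100A3 ranked 39, S100A2 ranked 42 and S100A6 ranked 489 in likeness to S100A4, while the nearest of S100A10, S100A11, S100A13 and S100A16 ranked 11148. The sets of members were formed from these same libraries, so this contrast follows from the sorting and lends it no support.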

How the data were processed

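RNA from 2 libraries each of shNC, shHMGA2-1 and shHMGA2-2 was measured by mRNA capture and sequencing. The authors deposited a table with raw counts and FPKM values per gene and library. The submitters' processing notes name HISAT2 2.2.1, HTSeq 0.6.1 and GRCh38.p13, with no roles, and the annotation and strand setting are not given in the sources used here. The deposited FPKM values were recomputed from counts, exonic size and library total for 100.0% of values within 0.0051.

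Samples were grouped by title. Counts were normalized by TMM (factors 0.958 to 1.05) and filtered by filterByExpr (minimum count 10, 0.589 CPM) in edgeR 4.0.16 under R 4.3.3, leaving 16110 genes, and the quasi-likelihood p-values were adjusted after Benjamini and Hochberg over these genes. A model of 3 lines gave the comparisons between lines, and a second took the knockdown libraries as a single group. The coefficient of biological variation was 0.0583 in the first and 0.291 in the second. The steps were tested on simulated data. Intervals are 95% confidence intervals of the model. The limit of 3 counts covers counting error only, as reads carry no molecular identifiers. Replicates differed by more than sampling noise in each line (chi-square per degree of freedom 2.06, 6.8 and 3.1).

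The members and gene lists were chosen with earlier results of these data known. Named were all members, HMGA2, other S100 genes, tested genes of the stretch, and from each list the 3 called genes with the largest change. ANXA1, ANXA2, AGER, CACYBP, EZR, FGF1, IQGAP1, AHNAK, MYH9, S100PBP and the single markers of other cell types were named for their known tie to a member or a cell type after their values were seen. Exonic overlaps were read from GENCODE 29 and promoters from RefSeq. Alternatives were DESeq2 1.42.0, upper quartile scaling, 2 other filters, limma 3.58.1 on log2(FPKM + 1) and log2(FPKM + 0.1), the replicate number as a block, each library left out, and the mean of both hairpin contrasts. A result of the epithelial marker list is not reported here, and the list was summed without it.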

Additional observations from a re-analysis of the deposited data

Results flagged for a closer look

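The effect of knockdown differed between the hairpin lines for each of the 8 tested members, by the test of shHMGA2-2 against shHMGA2-1 in edgeR. On the log2 scale the effect in shHMGA2-2 minus that in shHMGA2-1 was 2.293 for S100A2, 2.319 for S100A3, 3.745 for S100A4 and 0.951 for S100A6. It was -0.406 for S100A10, -0.571 for S100A11, -0.371 for S100A13 and -0.429 for S100A16. S100A2 and S100A4 had opposite signs in the 2 lines. The hairpin, the clone and the depth of the HMGA2 knockdown all change between the lines and cannot be told apart.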

How the results depend on the processing

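The calls of S100A2, S100A3, S100A4, S100A6, S100A10 and S100A16 in shHMGA2-1, of S100A2, S100A4, S100A10, S100A11 and S100A16 in shHMGA2-2, and of these and S100A3 and S100A6 between the knockdown lines kept their direction and side of the threshold under 13 of 13 alternatives. S100A13 lost its call in shHMGA2-2 under 8 of 13 alternatives and between the knockdown lines under 6 of 13, with adjusted p up to 0.249 and 0.118. Over the results that are not counts or medians, 389 alternatives gave the same verdict, 18 a weaker and 5 a stronger one. A further 21 turned the sign of a log2 fold change. The other 7 moved a ratio of line means by more than the replicate spread, with or without a turn of its sign. Signs turned only for differences that were not called. For S100A11 in shHMGA2-1 they were 0.045 with upper quartile scaling, 0.044 with limma at either pseudocount, 0.001 without the second shNC library and 0.032 without the second shHMGA2-1 library (leave-one-out range -0.072 to 0.032). For S100A13 in shHMGA2-1 they were -0.013 without the second shNC and -0.047 without the first shHMGA2-1 library (range to 0.172), and for S100A3 in shHMGA2-2 -0.001 without the second shNC library (range to 0.216). For S100A6 in shHMGA2-2 they were 0.078 with upper quartile scaling, 0.080 with limma at either pseudocount, 0.014 without the first shNC and 0.040 without the first shHMGA2-2 library (range from -0.127). As ratios of line means in FPKM, S100A11 in shHMGA2-1 was 0.046 and S100A6 in shHMGA2-2 0.082, also of the other sign. In the pooled comparison S100A2 turned to -0.095 as the mean of both contrasts and to -0.066 and -0.019 without the first or second shHMGA2-2 library (range to 0.611). S100A4 turned to -0.720 as that mean, to -0.258 and -0.567 with limma at pseudocounts of 1 and 0.1, and to -0.159 and -0.315 without those libraries (range to 0.623). The mean of S100A4 was itself called (adjusted p = 0.00677).

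Pooled calls among members went from 1 to 6 as the mean of both contrasts, for which the share of all genes called is not given here. They went to 2 with DESeq2 and 0 with the replicate block, and from 0 to 1 when single libraries were left out. Pooled DEGs went from 1 to 2 as that mean, to 0 with the replicate block, and from 0 to 1 without single libraries. DEGs in shHMGA2-1 ranged from 3 to 5 without single libraries. The cause was not tested. The median ratio of line means in shHMGA2-2 was -0.051 in FPKM, which is scaled by library totals rather than TMM, against -0.171. The median of all genes there was 0.138 with limma at a pseudocount of 0.1, against 0.028. Equal replicate numbers did not pair the samples (correlations of deviations -0.0218, 0.00213 and -0.1), and the block moved all-gene calls from 5388 to 4840, 9464 to 9065, 8095 to 7609 and, pooled, 848 to 152. Pooled all-gene calls were 1975 with DESeq2. Upper quartile scaling moved the median of all genes from 0.028 to 0.143 in shHMGA2-2, and the share of calls that were higher from 47.2% to 58.8% in shHMGA2-1 and from 44.5% to 55.7% in the pooled comparison. In shHMGA2-2 that share went from 50.3% to 60.7% with limma at a pseudocount of 1. Depth limited S100A14 and S100P, which 0 of the comparisons could test.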
